A study of Homo sapiens with 10 samples.

Results

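Genes for long noncoding RNAs (lncRNAs) that lie away from protein-coding genes held 15093 of the 177039 regions (8.53%) in which RNA-DNA hybrids were detected in U2OS cells, a human osteosarcoma line. They were measured by DNA-RNA immunoprecipitation sequencing (DRIP-seq): nucleic acids of nuclei that had not been crosslinked were sonicated, and hybrids were enriched with the antibody S9.6. Overlapping peaks of the 5 deposited peak lists on chromosomes 1 to 22 and X were merged. A merged region was kept where it was narrower than 5000 bases, overlapped a RefSeq gene of the type lncRNA and lay more than 1 kb from every protein-coding gene, whatever the number of libraries with a peak in it. Of the 23498 regions that overlapped a lncRNA gene, 8373 lay within 1 kb of a protein-coding gene or overlapped one, and 32 others were too wide. The regions that were kept are called lncRNA regions here. They fell in 5790 of the 18177 RefSeq lncRNA genes, and 865 of them overlapped 2 or more lncRNA genes. The widest inside the width limit, in LINC01060, spanned 4942 bases, and the narrowest outside it, in CAMSAP1-DT, spanned 5001 bases. The nearest to a protein-coding gene among those kept, in LOC124902932, was 1002 bases away, and the nearest of those left out by distance, in LOC105378980, was 999 bases away.

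The study compared cells with the H493R change in TDP1, which causes the neurodegenerative syndrome SCAN1, with WT cells. All libraries were of U2OS cells, and the labels name no treatment. There were 3 SCAN1 libraries, of a line named SCAN1#1 in experiments 1 and 2 and a line named SCAN1#2 in experiment 2, and 2 WT libraries, 1 from each experiment. The sources used here do not say how the SCAN1 lines were derived, and the antibody lots differed between the experiments. Replicate libraries are not stated to come from separate cultures beyond the experiment number, so the tests measure the spread between these libraries, which may be technical.

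Most lncRNAs are transcribed by RNA polymerase II, and a nascent RNA that pairs again with its template strand forms a hybrid and leaves the other DNA strand single, a structure called an R-loop. R-loops are known to form where the new RNA is rich in G and the template rich in C, as at many CpG island promoters. TDP1 removes trapped topoisomerase I from DNA ends, and topoisomerase I relaxes the supercoils that transcription makes. The S9.6 peaks have no strand, so the RNA in a hybrid was not identified, and a peak in a lncRNA gene may hold RNA of another transcript. The line showed peaks in all 5 libraries in RUNX2, COL1A1, SPARC, VIM and ALPL, genes of bone-forming and mesenchymal cells, while ALB and CD3E, genes of liver and T cells, had none; COL1A2 had a peak in 1 library only, the epithelial gene EPCAM had one in all 5, and PTPRC and GFAP, of blood and glial cells, in 3 each.

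The promoters shown first include those of 2 of the 3 strongest lncRNA regions. RefSeq sequences on GRCh38.p14 were used, from 250 bases before a start to 50 after it, and 11384 of the 18177 lncRNA genes had one. LOC442028, LOC107984132 and LOC497256, on chromosomes 2, 13 and 9, each had their start under a region with a peak in all 5 libraries, and their promoters are related copies. LOC124900633 on chromosome 15 has a related copy under no peak in any library. Capitals mark GATTGG and its reverse complement CCAATC, which contains the CCAAT box, a common promoter motif.
LOC442028 (chr2:94947293-94947592, minus strand): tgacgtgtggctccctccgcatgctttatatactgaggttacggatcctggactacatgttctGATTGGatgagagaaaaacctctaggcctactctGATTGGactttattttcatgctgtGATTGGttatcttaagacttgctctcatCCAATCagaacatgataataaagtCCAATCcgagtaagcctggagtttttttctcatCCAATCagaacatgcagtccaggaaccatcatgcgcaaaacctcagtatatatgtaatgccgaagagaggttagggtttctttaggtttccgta
LOC107984132 (chr13:19118234-19118533, minus strand): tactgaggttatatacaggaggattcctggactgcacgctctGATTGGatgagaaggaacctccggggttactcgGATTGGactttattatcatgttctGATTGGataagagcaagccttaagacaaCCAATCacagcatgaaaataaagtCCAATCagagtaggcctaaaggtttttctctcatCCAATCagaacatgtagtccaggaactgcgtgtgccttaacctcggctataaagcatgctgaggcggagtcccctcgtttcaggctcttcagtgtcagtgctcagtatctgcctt
LOC497256 (chr9:87939211-87939510, minus strand): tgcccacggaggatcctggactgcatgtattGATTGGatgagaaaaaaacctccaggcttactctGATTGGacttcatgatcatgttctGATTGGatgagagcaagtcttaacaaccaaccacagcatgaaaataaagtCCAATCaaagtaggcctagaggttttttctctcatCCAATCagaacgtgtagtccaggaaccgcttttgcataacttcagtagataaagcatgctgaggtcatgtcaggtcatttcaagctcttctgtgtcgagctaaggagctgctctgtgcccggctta
LOC124900633 (chr15:21262908-21263207, plus strand): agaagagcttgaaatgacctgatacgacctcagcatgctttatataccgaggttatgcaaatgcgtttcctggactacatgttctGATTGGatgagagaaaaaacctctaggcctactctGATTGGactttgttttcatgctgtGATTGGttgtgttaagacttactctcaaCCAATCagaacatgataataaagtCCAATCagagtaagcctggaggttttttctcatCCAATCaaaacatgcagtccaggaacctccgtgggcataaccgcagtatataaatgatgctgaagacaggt

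The letters GATTGG stood 3 times in each of these 4 promoters. In the order of the printed strand they came before CCAATC, which stood 3 times in each except LOC497256, where it stood 2 times. Searched on both strands, 3 or more such matches were found in 0.615% of all lncRNA promoters. A match describes these windows only.

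A second set of starts had promoters of other kinds, and capitals mark CG dinucleotides in them. LINC02076 is shown because it had the second-highest enrichment, CHASERR, a lncRNA that lowers the expression of its neighbour CHD2, and OLMALINC, first described in oligodendrocyte maturation, because they are known genes with CpG-rich starts in all 5 libraries. RMST, a lncRNA of neural differentiation, is shown as a start under no peak.
LINC02076 (chr17:18410909-18411208, plus strand): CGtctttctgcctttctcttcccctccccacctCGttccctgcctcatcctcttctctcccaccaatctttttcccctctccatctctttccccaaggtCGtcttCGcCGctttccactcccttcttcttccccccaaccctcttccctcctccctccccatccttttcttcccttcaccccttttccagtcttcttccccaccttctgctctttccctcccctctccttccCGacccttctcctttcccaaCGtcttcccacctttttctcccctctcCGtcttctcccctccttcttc
OLMALINC (chr10:100373326-100373625, plus strand): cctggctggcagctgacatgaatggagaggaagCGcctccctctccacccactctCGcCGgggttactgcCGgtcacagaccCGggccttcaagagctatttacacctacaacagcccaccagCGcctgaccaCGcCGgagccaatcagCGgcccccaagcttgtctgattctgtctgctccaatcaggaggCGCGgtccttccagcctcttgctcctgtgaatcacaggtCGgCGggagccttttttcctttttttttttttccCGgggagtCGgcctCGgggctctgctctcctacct
CHASERR (chr15:92882593-92882892, plus strand): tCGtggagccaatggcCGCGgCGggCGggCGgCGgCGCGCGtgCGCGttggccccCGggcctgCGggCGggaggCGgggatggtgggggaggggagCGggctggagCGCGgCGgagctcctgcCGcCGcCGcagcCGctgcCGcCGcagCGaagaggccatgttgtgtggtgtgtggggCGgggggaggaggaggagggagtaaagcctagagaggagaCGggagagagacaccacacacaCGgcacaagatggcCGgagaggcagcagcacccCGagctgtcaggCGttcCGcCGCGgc
RMST (chr12:97464441-97464740, plus strand): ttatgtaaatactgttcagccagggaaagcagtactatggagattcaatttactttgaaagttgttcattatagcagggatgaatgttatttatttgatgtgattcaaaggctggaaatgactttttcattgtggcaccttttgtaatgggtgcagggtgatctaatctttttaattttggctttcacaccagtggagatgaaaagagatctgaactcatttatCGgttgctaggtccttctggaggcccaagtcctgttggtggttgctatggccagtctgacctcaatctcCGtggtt

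The printed strand of LINC02076 is nearly all C and T, with a GC skew, the difference between G and C over their sum, of -0.83. The skew was 0.27 at CHASERR and -0.17 at OLMALINC. CHASERR had 36 CG dinucleotides and a GC content of 74.7%, OLMALINC had 16 and 60.0%, LINC02076 had 8 and 56.3%, and RMST had 2 and 40.3%. Not every start under no peak was poor in CG, since that of FENDRR had 26 and 62.3%. The medians over all such starts are given further below. The related copies on chromosomes 2, 13 and 9 were poorer in GC than LINC02076, OLMALINC and CHASERR, at 42.0% in LOC442028, 46.0% in LOC107984132 and 44.7% in LOC497256.

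The strongest lncRNA regions with a peak in all 5 libraries were ranked by the median over libraries of the fold enrichment, the authors' ratio of a peak's signal over the caller's background, taking the highest peak of the region in each library. At chr2:94945396-94949292 the shared start region of LOC442028 and LOC105373487, 3897 bases wide, had a fold enrichment of 85.0, 131 and 152 in the SCAN1 libraries (SCAN1#1 in experiments 1 and 2, then SCAN1#2, here and below) and of 110 and 74.7 in the WT libraries of experiments 1 and 2. LINC02076, at chr17:18410255-18412021, had 64.1, 107 and 108 in SCAN1 and 91.3 and 75.8 in WT. LOC107984132, at chr13:19116461-19120146, had 32.2, 53.3 and 67.6 in SCAN1 and 55.2 and 20.8 in WT. In these 3 regions the genotypes overlapped. For comparison, the median fold enrichment of all peaks of a library was 4.84 to 5.94.

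Of the other 9 regions among the strongest 12, LOC151760 and OLMALINC had higher values in all 3 SCAN1 libraries than in both WT libraries. LOC151760, at chr3:110968070-110970139, had 57.7, 50.5 and 69.6 in SCAN1 against 45.7 and 36.6 in WT. OLMALINC, at chr10:100371432-100375743, had 37.0, 59.9 and 52.5 in SCAN1 against 21.0 and 25.8 in WT. That order was seen in 146 of the 1436 lncRNA regions with a peak in all 5 libraries, or 10.2%, against 11.3% of all such regions, and the opposite order in 57, or 3.97%, against 3.86% of all such regions, so the lncRNA regions stood near the background in both. The values of SNHG15, a small nucleolar RNA host gene, were 24.6, 45.7 and 42.1 in SCAN1 and 30.8 and 32.3 in WT. Those of MARCHF10-DT, the divergent transcript of MARCHF10, were 21.9, 47.2 and 51.1 in SCAN1 and 24.4 and 32.8 in WT. LINC01409, LINC01303 with LINC03033, LOC100996294, GPRC5D-AS1 and LINC03027 made up the rest, with medians between 28.9 and 39.9. A fold enrichment depends on the depth of a library and of its control, which are unknown here, so these levels were not tested.

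**Figure D1:**
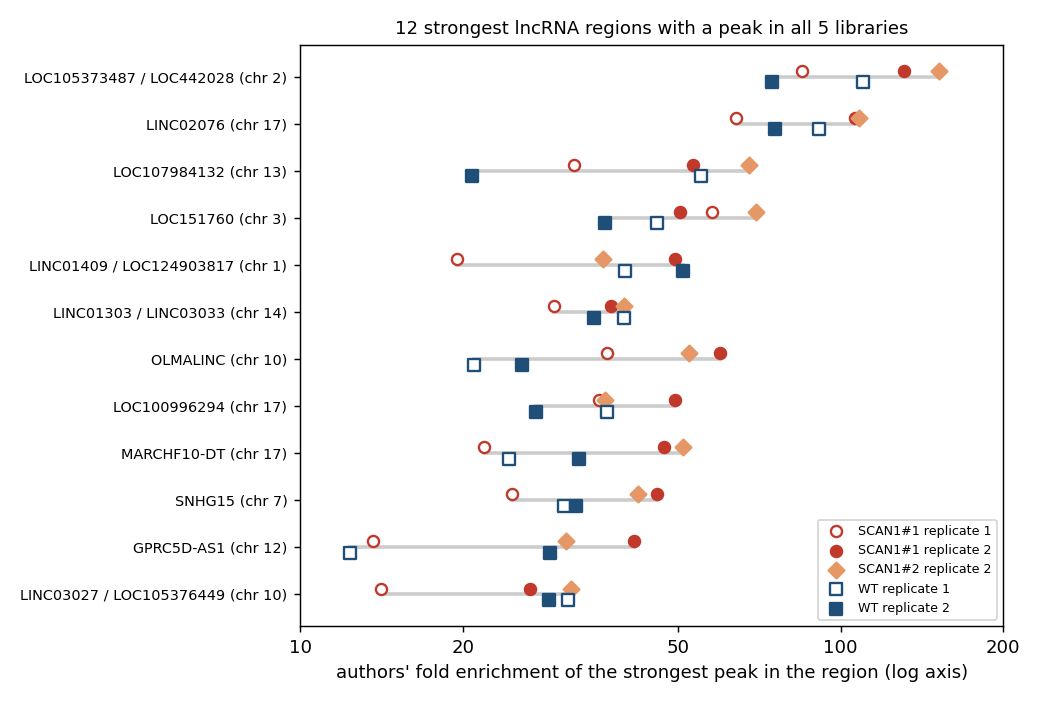
The authors' fold enrichment (log axis) of the 12 strongest lncRNA regions with a peak in all 5 libraries, with 1 symbol for each library; open symbols are experiment 1, filled symbols experiment 2, and grey bars the range. The region of LOC442028 reached 152 in SCAN1#2, and the 3 SCAN1 symbols lie to the right of both WT symbols for LOC151760 and OLMALINC only.

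Related copies of the promoter shown first were counted over all lncRNA promoters. A total of 20 promoters on 10 chromosomes shared at least 30 of their 10-mers, on either strand, with LOC442028, LOC107984132 or LOC497256, a limit set after the values of these genes were seen, and these 3 genes were picked because their starts lay under such regions. Of them, 9 had their start under a region with a peak in all 5 libraries and 11 under no peak, and none had a peak in only some libraries. Over all lncRNA promoters, 875 of 11384 starts (7.69%) lay under a region with a peak in all 5. Without the 3 genes that the family was built on and LOC105373487, which shares the region of LOC442028, 5 of 16 starts did so. The 9 starts lay in 7 regions. Only 3 of these are lncRNA regions, since 1 was too close to a protein-coding gene and 3 were 5000 bases or wider. Among the wide ones, the region at the start of LOC101930665 on chromosome 17, 29223 bases long, had fold enrichments of 139, 209 and 219 in SCAN1 and 229 and 125 in WT. The promoter of LOC124902203 on chromosome 9, another of the related copies, lay in a region of 5189 bases with 33.1, 47.2 and 36.3 in SCAN1 and 22.1 and 14.02 in WT. Reads from near-identical copies can be placed at any of them, and the handling of such reads is not stated in the labels, so the level at a single copy is uncertain.

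Gene starts stood out among the lncRNA regions by how often they recurred. A lncRNA region was counted as lying at a start where it came within 500 bases of one with a known position, and 473 of 15093 (3.13%) did. A peak in all 5 libraries was found in 155 of the 473 (32.8%), against 1281 of the 14620 regions away from known starts (8.76%). Where the start of every overlapped gene was known, the share away from starts was 8.26%. Regions at the ends of protein-coding genes, within 1 kb of either end, gave 33.0%.

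Peaks at lncRNA starts were wider in each library, with medians of 522, 621 and 595 bases in SCAN1 and 518.5 and 633 bases in WT, against 333, 364 and 367 bases in SCAN1 and 331 and 397 bases in WT away from starts. The mean difference was 219.5 ± 30.4 bases (SD, n = 5 libraries). The median fold enrichment was also higher at starts in 5 of 5 libraries, by 0.45 ± 0.13 (SD, n = 5). In an exact two-sided sign-flip test over libraries both gave p = 0.063, the smallest that 5 libraries allow, and an adjusted p of 0.0729 over 7 comparisons. Neither passed a threshold of 0.05, which this number of libraries cannot reach.

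The starts with peaks in all 5 libraries had promoters rich in GC and CpG. The 118 promoters whose start lay under such a lncRNA region had a median GC content of 60.0%, 17.5 CG dinucleotides and a ratio of observed to expected CG of 0.658. The 6097 promoters more than 1 kb from protein-coding genes with a start under no peak had 46.0%, 3 and 0.219, and all 11384 lncRNA promoters 50%, 5 and 0.285. Runs of 4 G (GGGG, on the printed strand) stood in 72.0% of the first set, 57.9% of the second and 64.4% of all lncRNA promoters. Runs of 4 C (CCCC) stood in 80.5%, 57.3% and 64.8% of these sets. TATAAA stood in 8.47%, 10.9% and 8.81%. The quartiles of the GC content ran from 53.7% to 68.3% at starts with peaks in all 5 libraries and from 39.3% to 54.0% at starts under no peak. Genes are not replicates, so these are descriptions.

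**Figure D2:**
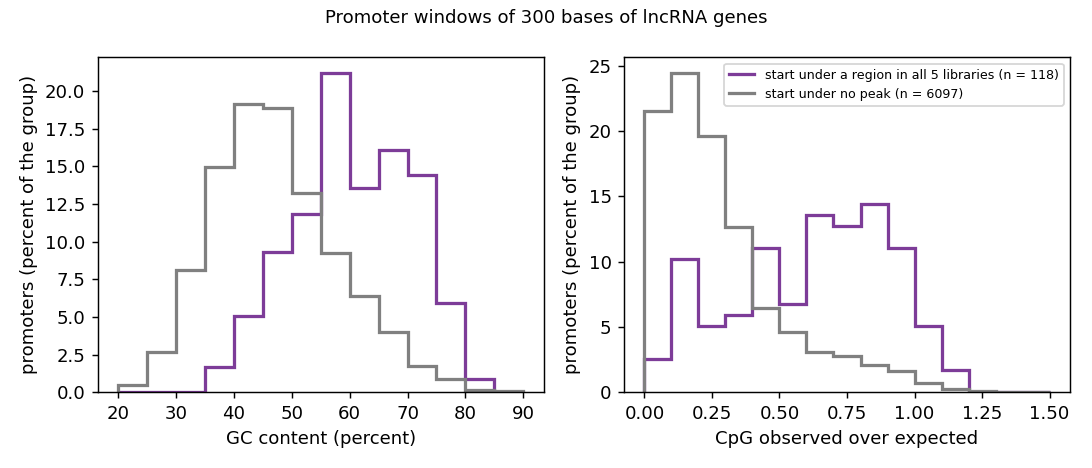
GC content (left) and ratio of observed to expected CG dinucleotides (right) in promoter windows of 300 bases of lncRNA genes, as the percent of each set of promoters in each bin. The 118 starts under a lncRNA region in all 5 libraries (purple) lie to the right of the 6097 starts under no peak (grey), with medians of 60.0% and 46.0% GC and of 0.658 and 0.219.

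Among the recurrent starts were those of MIR17HG, SNHG5 and MIRLET7IHG, host genes whose introns or exons carry small RNAs, and of other lncRNA genes. The start region of MIR17HG, which carries a cluster of microRNAs that promotes growth, at chr13:91347591-91349424, had fold enrichments of 28.6, 19.8 and 14.6 in SCAN1 and 19.9 and 19.3 in WT. SNHG5, a small nucleolar RNA host gene, at chr6:85678617-85679755, had 16.3, 20.6 and 20.3 in SCAN1 and 23.3 and 21.98 in WT. The CHASERR start, at chr15:92882218-92884126, had 14.4, 24.8 and 34.2 in SCAN1 and 19.9 and 24.7 in WT. The region at the starts of MIRLET7IHG and LINC01465, at chr12:62602319-62604722, had 18.5, 29.2 and 26.4 in SCAN1 and 20.6 and 21.6 in WT. LINC00941, at chr12:30793743-30798006, had 21.1, 35.9 and 31.0 in SCAN1 against 8.35 and 18.7 in WT. In LINC00941 the 3 SCAN1 values lay above both WT values, and in SNHG5 they lay below both. Of the lncRNA regions with a peak in all 5 libraries, 10.2% had the first order and 3.97% the second. Over all merged regions with such peaks the shares were 11.3% and 3.86%.

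The region of MIRLET7IHG also covered the hairpin of a microRNA. Of 1558 annotated microRNA hairpins, 14 were overlapped by a lncRNA region, 7 of them by a region with a peak in all 5 libraries. In 4 of these 7, those of let-7i, MIR1915, MIR4477B and MIR570, each library's own peak reached the hairpin. The mature microRNAs of 4 well-known hairpins are shown, with the seed (bases 2 to 8), which pairs with targets, in capitals.
hsa-let-7i-5p (chr12:62603691-62603712, plus strand): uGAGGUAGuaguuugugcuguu
hsa-let-7d-5p (chr9:94178841-94178862, plus strand): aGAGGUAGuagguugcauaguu
hsa-miR-24-3p (chr19:13836289-13836310, minus strand): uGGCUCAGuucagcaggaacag
hsa-miR-222-3p (chrX:45747036-45747056, minus strand): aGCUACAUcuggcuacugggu

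let-7i and let-7d, both of the let-7 family that limits cell growth, share the seed GAGGUAG, and their hairpins lay in regions with a peak in all 5 libraries on different chromosomes. The region over the let-7d hairpin, at chr9:94177922-94179105 in MIRLET7A1HG, had fold enrichments of 7.49, 7.83 and 6.03 in SCAN1 and 9.52 and 6.09 in WT, but the library's own peak reached the hairpin only in SCAN1#1 of experiment 1, SCAN1#2 and WT of experiment 1. The region over the second genomic copy of miR-24, at chr19:13835335-13836429 in MIR23AHG, had 9.03, 5.76 and 5.15 in SCAN1 and 3.54 and 6.06 in WT, and the library's own peak reached the hairpin in SCAN1#1 of experiment 1 and in both WT libraries. The region over miR-222, a microRNA that represses the cell cycle inhibitor p27, at chrX:45746491-45747213 in MIR222HG, had no peak in SCAN1#1 of experiment 1, values of 4.42 and 3.89 in the other SCAN1 libraries and 5.01 and 5.68 in WT. The remaining hairpin in a region with peaks in all 5 libraries, MIR4435-2, was reached by the peak of WT in experiment 2 only. The hairpin of miR-34a, a direct target of p53, had a peak in WT of experiment 2 only, at 3.42.

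In each library peaks were sparser in lncRNA gene sequence away from protein-coding genes than in the interiors of protein-coding genes. Of the 361.5 Mb of lncRNA gene sequence more than 1 kb from protein-coding genes, peaks covered 0.598%, 1.34% and 1.09% in SCAN1 and 0.796% and 1.15% in WT. Of the 1219 Mb of protein-coding gene interiors, more than 1 kb from either end, they covered 1.91%, 2.87% and 2.07% in SCAN1 and 2.19% and 2.31% in WT. The lncRNA value was lower in 5 of 5 libraries, with a mean difference of -1.28 percentage points ± 0.213 (SD), with an exact sign-flip p of 0.063 and an adjusted p of 0.0729.

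Single peaks in lncRNA regions were like those in intergenic regions, more than 1 kb from any gene. The median fold enrichment differed by 0.01 ± 0.02 (SD, n = 5 libraries; exact p = 1.0), higher in 1 library, lower in 3 and equal in 1. Against interiors of protein-coding genes it was higher in 5 of 5 libraries, at 4.85, 5.91 and 6.02 in SCAN1 and 4.84 and 5.86 in WT for lncRNA regions and 4.72, 5.401 and 5.60 in SCAN1 and 4.66 and 5.36 in WT for interiors (exact p = 0.063, adjusted p = 0.0729). The median peak was 5.6 bases wider than in intergenic regions and 14.6 bases narrower than in interiors, in 5 of 5 libraries each (exact p = 0.063).

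Few lncRNA regions recurred in every library. A peak in a single library was found in 6730 of the 15093 (44.6%), in 2 libraries in 3127 (20.7%), in 3 in 2244 (14.9%), in 4 in 1556 (10.3%) and in all 5 in 1436 (9.51%). The share in all 5 was 9.19% for intergenic regions, 9.79% for interiors and 12.4% for all merged regions. It was 12.5% for lncRNA regions 1 to 5 kb from a protein-coding gene, 11.0% at 5 to 20 kb, 10.5% at 20 to 100 kb and 6.99% beyond 100 kb. By the kind of gene, read from its symbol only, it was 17.1% in host genes of small RNAs (351 regions). It was 14.3% in other genes with names of their own, 10.1% in LINC genes and 9.08% in LOC genes. In antisense genes and divergent transcripts it was 8.97% and 8.17%. A region over genes of more than 1 kind was counted in each. DLEU2 and CYTOR, members of the list of host genes described below, were counted with the other names. The median lncRNA region was 398 bases wide and lay 52.4 kb from a protein-coding gene.

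**Figure D3:**
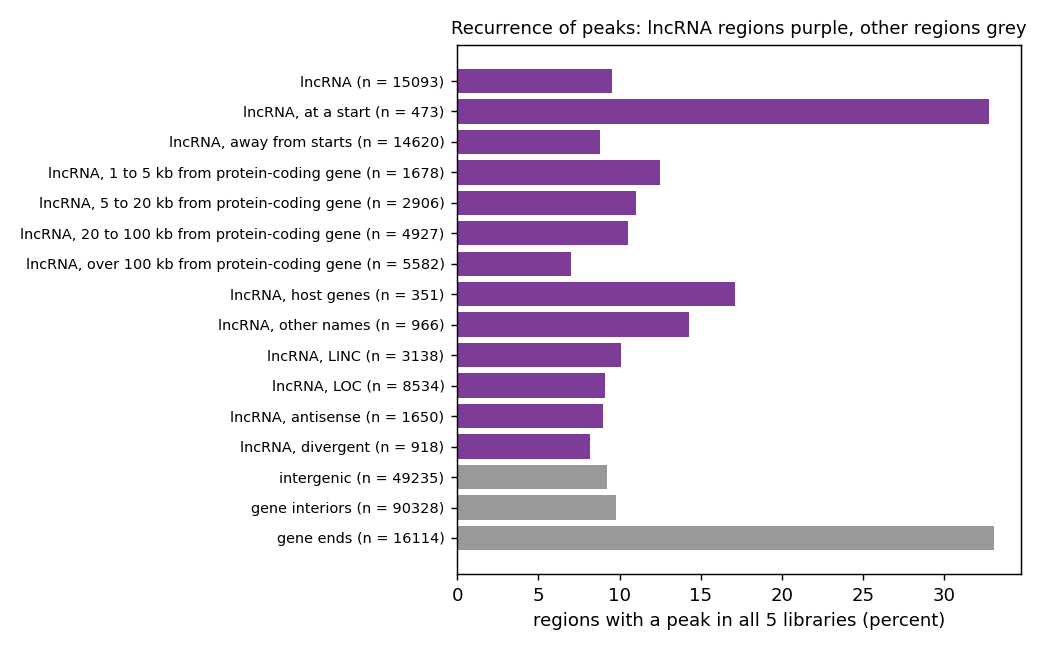
Share of regions with a peak in all 5 libraries, for lncRNA regions and their subsets (purple) and for the other classes of region (grey); n is the number of regions. Regions at lncRNA starts (32.8%) and at the ends of protein-coding genes (33.0%) stand above all other bars shown, and lncRNA regions beyond 100 kb from a protein-coding gene have the lowest (6.99%).

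The share of all peak bases that fell in lncRNA regions followed the experiment. It was 4.34%, 6.80% and 7.18% in the SCAN1 libraries and 5.12% and 7.0% in the WT libraries. The 3 libraries of experiment 2 lay between 6.80% and 7.18%, above both libraries of experiment 1, with means of 6.99% and 4.73%. SCAN1 averaged 6.11% ± 1.54 (SD, n = 3) and WT 6.06% ± 1.33 (SD, n = 2), a difference of 0.0487 percentage points (exact two-sided permutation test over 10 splits, p = 1.0; the smallest p possible is 0.1). Set against the WT library of its own experiment, SCAN1#1 differed by -0.774 and then by -0.198, and SCAN1#2 differed by 0.177; with the experiment as a block the mean difference was -0.338. Without 1 library the difference ranged from -0.892 (without WT of experiment 1) to 0.989 (without WT of experiment 2); it was 0.93 without SCAN1#1 of experiment 1 and below 0 without SCAN1#1 of experiment 2 (-0.298) and without SCAN1#2 (-0.486), so its sign was not settled.

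The intergenic share moved with that of lncRNA regions, at 12.3%, 21.1% and 22.2% in SCAN1 and 16.0% and 22.5% in WT, while the share at the ends of protein-coding genes moved the other way, at 20.8%, 15.4% and 16.6% in SCAN1 and 18.3% and 14.4% in WT. The mean share in experiment 2 over that in experiment 1 was 1.48 for lncRNA regions, 1.55 for intergenic regions, 1.03 for interiors and 0.791 for gene ends. The antibody lot and the number of peaks (63456 and 82545 in experiment 1, 89445 to 110745 in experiment 2) also differed between the experiments, and their part in this difference cannot be told apart from that of the experiment. In lists cut to the 63456 strongest peaks the shares were 4.35%, 6.64% and 7.0% in SCAN1 and 4.95% and 6.98% in WT.

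**Figure D4:**
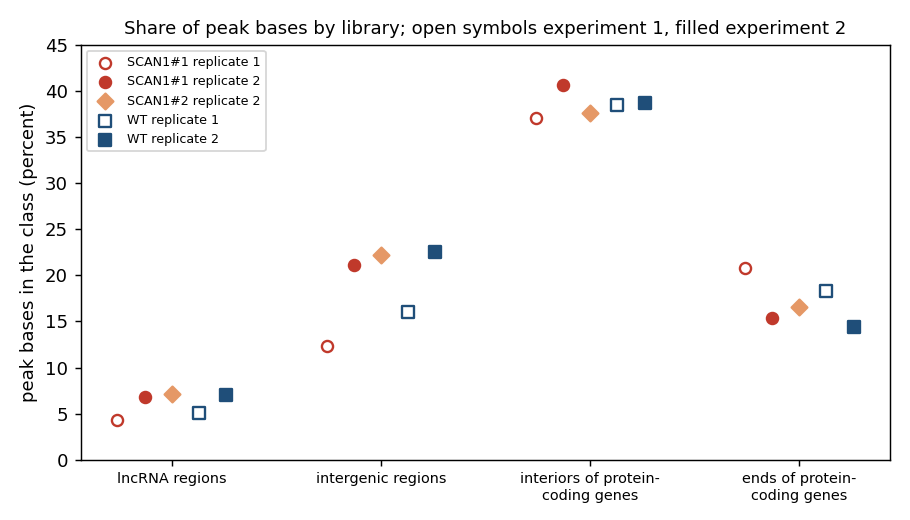
Percent of the peak bases of each library in 4 classes of region; open symbols are experiment 1 and filled symbols experiment 2. In lncRNA regions the 3 filled symbols lie between 6.80% and 7.18% and the 2 open ones at 4.34% (SCAN1#1) and 5.12% (WT).

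Few lncRNA regions separated the genotypes by the presence of a peak. A peak in all 3 SCAN1 libraries and no WT library was found in 137 lncRNA regions (0.908%), against 0.945% of all merged regions. The reverse, both WT and no SCAN1 library, was found in 176 (1.17%), against 1.39% of all. Both shares were a little below those of all regions, and intergenic regions had 0.845% and 1.44%. The differences between these shares were not tested and do not show a trait of lncRNA regions. Without SCAN1#1 of experiment 1, SCAN1#2, WT of experiment 1 or WT of experiment 2 in turn the first count was 960, 285, 276 and 471; without SCAN1#1 of experiment 2, SCAN1#2, WT of experiment 1 or WT of experiment 2 the second was 451, 338, 1589 and 1154. In each case fewer libraries had to meet the condition. The experiments separated more regions, since the 3 libraries of experiment 2 shared peaks in 1075 lncRNA regions (7.12%, against 5.28% of all regions) that lacked one in experiment 1. As regions in both over regions in either, the 3 pairs of libraries of experiment 2 shared 0.418 to 0.432 of their lncRNA regions, the pair of experiment 1 shared 0.317, and the 6 pairs across experiments shared 0.251 to 0.332. A peak in both libraries of experiment 1 and none of experiment 2 was found in 141 (0.934%, against 1.63% of all). In lists of equal length these counts were 723 of 10963 (6.59%, against 4.41% of all regions) and 222 (2.02%, against 3.68% of all regions).

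The strongest region with peaks in SCAN1 only lay in LOC339166, at chr17:5780549-5782145, with fold enrichments of 8.16, 17.3 and 18.1. It was followed by LOC105379051, at chr5:82974119-82975577, with 10.6, 4.37 and 21.8. LOC105377609, LOC105378458 and the overlapping LOC107985434 and LOC107987284 had means of 10.2, 9.45 and 8.87. Of the regions with peaks in WT only, the strongest lay in FAM85B. This region, at chr8:8200000-8200416, had 7.77 and 11.4 in WT, and LOC124901589, at chr7:12056868-12057234, had 5.83 and 12.5. LOC105374308, LOC105377379 and LINC03098 had means of 8.72, 8.13 and 7.89. Presence in 3 against 2 libraries gives no test for a single region, and a region without a listed peak may still hold signal below the peak threshold.

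Coverage of whole lncRNA genes by peaks was tested with limma, on the percent of each gene covered by the 63456 strongest peaks of each library, over all 12957 genes of every type with a mean of at least 2%. These included 1757 of the 5790 lncRNA genes with a lncRNA region. A gene's coverage counts all peaks in it, also those outside lncRNA regions. No lncRNA gene passed an adjusted p of 0.05 in either direction (0 of 1757, 0%; 0% of all genes), and the smallest adjusted p was 0.157, for FAM27C. At an unadjusted p under 0.05, 32 lncRNA genes were higher in SCAN1 (1.82%, against 2.09% of all genes tested) and 35 lower (1.99%, against 1.63%). On the log2(percent + 1) scale 2 lncRNA genes were called higher, LOC105369724 and LOC105374263 (0.114%, against 0.17% of all genes), and 1 lower, FAM27C (0.0569%, against 0.17% of all genes). LOC105374263 had 13.3%, 16.9% and 10.5% in SCAN1 and no peak in WT. Without WT of experiment 1 there were 28 lower calls (1.52%, against 1.37% of all genes in that fit) and without WT of experiment 2 there were 34 (2%, against 2.3% of all genes), where the single WT library left was assumed to vary like the SCAN1 libraries.

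The values below are of genes chosen for the size of their smallest difference from WT of the same experiment, so that their direction was fixed by the choice. FAM27C, on chromosome 9, had no peak in the 3 SCAN1 libraries and was covered by 35.9% and 35.8% in the WT libraries, a difference of -35.8 percentage points (SE 2.48). LOC105369724, on chromosome 12, was covered by 22.9%, 18.7% and 22.9% in SCAN1 and by 0% in both WT libraries at equal list length, though in the whole list of WT in experiment 2 it had 19.05%. LOC101929014, on chromosome 9, had 26.6%, 31.1% and 30.7% in SCAN1 against 0.777% and 0% in WT, a difference of 29.1 points (SE 3.84; limma adjusted p = 0.358). LOC101928796, on chromosome 21, had 21.6%, 52.1% and 37.2% in SCAN1 and no peak in WT. With peaks of a −log10 q of at least 5 only, the difference of LOC101928796 was 7.21 points, against 37.0 with all peaks, that of LOC105369724 was 11.8, against 21.5, and that of FAM27C was -17.9. With 1 kb added at both ends of each gene, FAM27C differed by -14.7 and LOC101929014 by 16.1 points. All coverage of these 4 genes lay in lncRNA regions.

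Among better known genes, NORAD, a lncRNA that binds Pumilio proteins and is induced by DNA damage, was covered by 15.1%, 59.7% and 60.1% in SCAN1 and 0% and 47.1% in WT. Its values followed the experiment more than the genotype, and the 21.4 point difference (SE 23.6; limma adjusted p = 0.996) became -2.11 without WT of experiment 1. In the whole lists NORAD had 15.1%, 64.8% and 68.4% in SCAN1 and 21.9% and 56.1% in WT, so that SCAN1#1 of experiment 1 lay below its WT library, and the difference was 10.4 points. HOTAIR, transcribed from the HOXC cluster, was covered by 3.55%, 16.8% and 20.2% in SCAN1 against 32.8% and 35.3% in WT, a difference of -20.5 points (SE 7.36; limma adjusted p = 0.996), and 45.5% of its covered bases lay in its 1 lncRNA region. The 3 SCAN1 values lay below both WT values. That order was seen in 150 of the 1757 lncRNA genes (8.54%, against 6.68% of all genes tested), and the opposite order in 137 (7.8%, against 8.41%). Against WT of the same experiment, 348 lncRNA genes were lower in all 3 comparisons (19.8%, against 15.1% of all genes) and 222 higher (12.6%, against 15.9%); comparisons within experiment 2 share their WT library. LINC01431 had 0%, 46.7% and 52.5% in SCAN1 and 53.8% and 84.5% in WT; in the whole lists its SCAN1 values were 0%, 65.3% and 69.2%, and the genotypes overlapped.

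The other genes of this choice were mostly LOC genes with no described function. Those with higher values in SCAN1 had differences of 15.5 to 29.2 points, as in LOC105371773 with 33.3%, 38.6% and 16.5% in SCAN1 against 2.98% and 0% in WT. LOC105378929 had 28.8%, 29.9% and 32.7% in SCAN1 against 11.0% and 19.04% in WT. Those with lower values had differences of -19.9 to -48.9 points. LOC124905119, on chromosome 22, had 0.546%, 0% and 8.02% in SCAN1 against 50.2% and 33.0% in WT. LOC102723825 had 13.9%, 12.03% and 0% in SCAN1 against 28.9% and 33.5% in WT. In LOC112543491 and LOC124903063 only 4.01% and 8.51% of the covered bases lay in lncRNA regions, so that their values describe peaks close to protein-coding genes or in wide regions. In the whole lists 4 of the 24 genes had a comparison with WT that turned: NORAD, LOC124904425, LOC112543491 and LOC124903063.

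**Figure D5:**
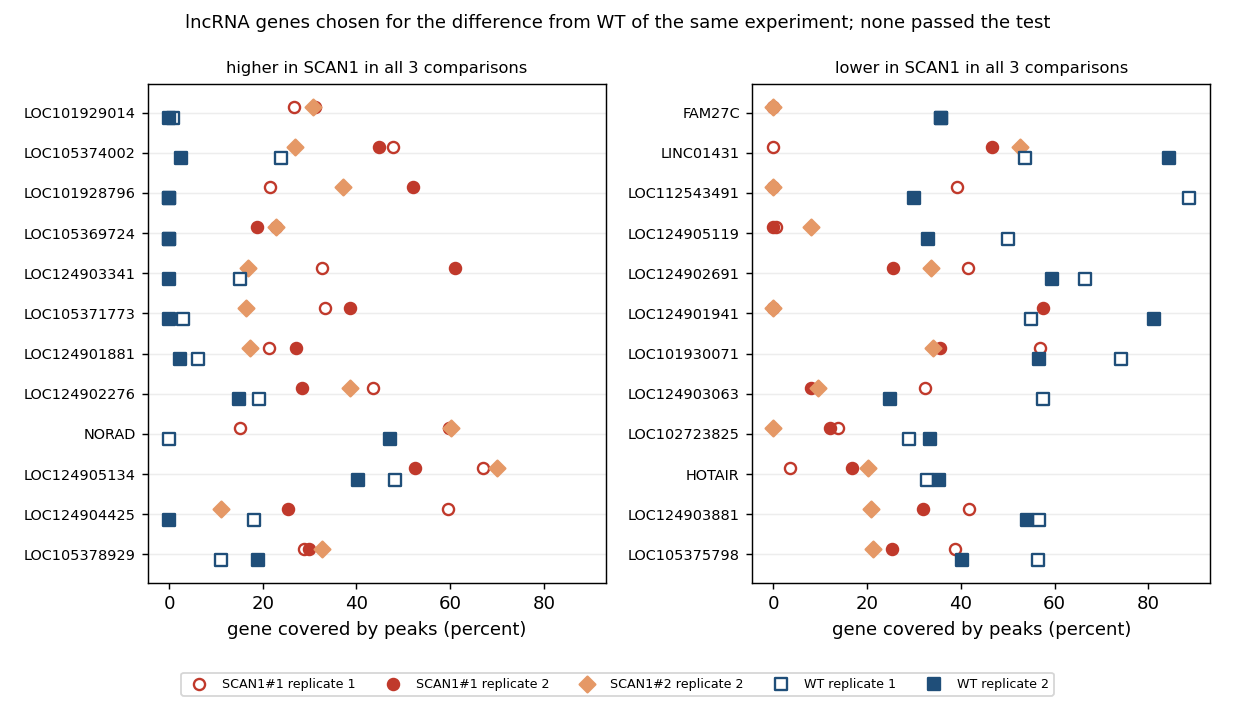
Percent of the gene covered by the 63456 strongest peaks in each library, for the 12 lncRNA genes with the largest smallest difference from WT of the same experiment in each direction; open symbols are experiment 1, filled symbols experiment 2. The direction in each panel was set by the choice of genes and none passed the limma test; FAM27C lies at 0 in the 3 SCAN1 libraries and at 35.9% and 35.8% in WT.

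Gene lists were described by their counts and medians, beside a median difference between SCAN1 and WT of 0.0181 percentage points over all genes tested and of -0.0767 over the 1757 lncRNA genes. No member of any list passed the test. Of the lncRNAs that respond to p53, the damage-induced tumour suppressor, 6 of 14 were tested, 3 had a positive and 3 a negative difference, and the median was 3.41 points. MIR34AHG, the host gene of miR-34a, held 18 lncRNA regions and was covered by 14.9%, 11.8% and 13.1% in SCAN1 against 8.90% and 3.76% in WT (difference 6.93, SE 2.48, limma adjusted p = 0.996). PURPL, a p53-induced RNA that limits p53 levels, was covered by 16.1%, 19.2% and 15.3% in SCAN1 against 11.8% and 4.17% in WT (difference 8.89, SE 3.51, limma adjusted p = 0.996). PICART1 had 19.96%, 0.723% and 6.12% in SCAN1 against 0.241% and 0.0556% in WT in lists of equal length. In the whole lists PICART1 had 19.96%, 21.9% and 13.7% in SCAN1 against 8.996% and 8.51% in WT. Its very low WT values were thus seen in the cut lists only, while the order of the genotypes was the same in both. The 3 SCAN1 values lay above both WT values in these 3 genes and in none of the other 3, LINC-PINT, PVT1 and NEAT1. Of all genes tested 8.41% had this order, and of the lncRNA genes 7.8%. The list's median was 0.341 without SCAN1#1 of experiment 1, 1.78 without WT of experiment 2, 7.02 without SCAN1#2 and 9.19 without WT of experiment 1, so single libraries moved it widely.

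Host genes of small nucleolar RNAs and microRNAs had 20 of 53 members tested, 12 with a positive and 8 with a negative difference, and a median of 1.04 points. It was 0.398 without WT of experiment 1, 0.446 and 0.61 without SCAN1#1 of experiments 2 and 1, and 1.6 without WT of experiment 2. Against WT of the same experiment the list's median was -0.328 and 3.38 in SCAN1#1 of experiments 1 and 2 and -1.19 in SCAN1#2, so its direction was not settled. In all 3 comparisons 3 tested members were higher and 4 lower than WT. Over all genes tested these orders were seen in 15.9% and 15.1%. SNHG15 was covered by 66.8%, 80.3% and 67.5% in SCAN1 against 58.9% and 59.8% in WT (difference 12.2, SE 5.67, limma adjusted p = 0.996). MIR17HG had 33.4%, 21.7% and 16.8% in SCAN1 and 16.4% and 13.3% in WT. MIR193BHG had 3.44%, 2.28% and 7.32% in SCAN1 and 13.4% and 7.78% in WT. In the whole lists MIR193BHG had 3.44%, 6.44% and 14.7% in SCAN1 and 14.2% and 9.31% in WT, and the genotypes overlapped. ZFAS1 and DANCR were the most covered of the list, at 82.8%, 88.8% and 74.7% in SCAN1 and 93.8% and 86.2% in WT for ZFAS1, but under 2% of their covered bases lay in lncRNA regions (1.97% and 1.13%).

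Of the lncRNAs of chromatin and the nucleus 11 of 30 were tested, 4 with a positive and 7 with a negative difference, with a median of -0.417 points, which was 0.095 without SCAN1#1 of experiment 2 and 0.569 without WT of experiment 1. NEAT1, the scaffold of paraspeckles, followed the experiment, at 61.8%, 34.1% and 27.0% in SCAN1 and 72.7% and 25.1% in WT. MALAT1, a nuclear speckle RNA, did so as well, at 64.9%, 38.5% and 42.6% in SCAN1 and 62.6% and 36.5% in WT. Of the lncRNAs described in RNA-DNA hybrids 4 of 9 were tested, all with a negative difference of the group means and a median of -2.92 points, or -1.45 with the experiment as a block. Within experiments MALAT1 was higher than WT in all 3 comparisons (by 2.29, 2.03 and 6.12 points) and NEAT1 in 2 of 3. VIM-AS1, antisense to the vimentin gene and known from an R-loop at its promoter, had 14.9%, 10.6% and 11.0% in SCAN1 against 17.8% and 14.8% in WT, with a difference of -4.16 (SE 2.95), and 24.3% of its covered bases lay in lncRNA regions. Those of NEAT1 and MALAT1 lay there to 30.8% and 15.8%. Without WT of experiment 1 the median of this list was 5.73, and without SCAN1#1 of experiment 1 and WT of experiment 2 in turn it was -7.26 and -9.78. Of the imprinted lncRNAs only IPW was tested, with peaks in SCAN1#1 and WT of experiment 2, at 5.24% and 5.85%. Of the lncRNAs of unrelated lineages MYOSLID and MIAT were tested, and their promoters lay under no peak. MYOSLID, first described in smooth muscle, had 12.5%, 14.1% and 21.4% in SCAN1 against 11.4% and 10.8% in WT, and MIAT had 6.72%, 11.4% and 9.54% in SCAN1 against 10.7% and 6.66% in WT. In the whole lists MYOSLID had 12.5%, 26.0% and 28.90% in SCAN1 against 15.4% and 28.91% in WT, and the genotypes overlapped.

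The number of lncRNA regions in a gene went with its length. A lncRNA region lay in 14.5% of genes under 10 kb, 42.1% at 10 to 50 kb, 73.9% at 50 to 200 kb and 94.9% of those of 200 kb and longer. The 8 genes with the most regions began with PVT1, a neighbour of MYC on chromosome 8, with 69 regions over 306.7 kb, or 22.5 per 100 kb, against a median of 2.15 per 100 kb in the 333 genes of 200 kb and longer. Its regions with a peak numbered 35, 38 and 27 in SCAN1 and 38 and 38 in WT, and its coverage was 9.30%, 8.10% and 7.65% in SCAN1 and 9.29% and 8.24% in WT, nearly level over libraries. MIR4435-2HG had 65 regions, of which 39, 41 and 34 had a peak in SCAN1 and 24 and 36 in WT. NCAL1 had 47, of which 39, 31 and 19 had a peak in SCAN1 and 23 and 25 in WT.

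These genes differed in how often their regions recurred. A peak in all 5 libraries was found in 23.2% of the regions of PVT1, 21.5% of MIR4435-2HG, 25.5% of NCAL1 and 20% of LOC105372666, against 8.57% in LOC105375751, 4.44% in CASC15, a neuroblastoma risk locus, 3.13% in LOC151760 and 2.56% in LINC02055. CASC15 had 45 regions with a peak in 11, 34 and 22 of them in SCAN1 and 10 and 15 in WT, lowest in the libraries of experiment 1. LINC02055 had 7, 22 and 18 in SCAN1 and 5 and 22 in WT of its 39 regions, again lowest in experiment 1. The hairpin MIR4435-2, in MIR4435-2HG on chromosome 2, has a related copy, MIR4435-1, inside NCAL1 on the same chromosome, so reads may be shared between these copies. NCAL1 also overlaps CYTOR, at chr2:87455427-87521518 with 20 lncRNA regions, and a region in their overlap counts for both genes.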

How the data were processed

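DRIP-seq peaks of 5 libraries (3 SCAN1, 2 WT) were used; 5 input samples are not analysed here. Per the submitters' processing notes, MACS3 3.0.0a6 and BWA 0.7.17-r1188 were among the tools, beside deepTools 3.5.1, SAMtools 1.9 and FastQC 0.11.5, with the build hg38. The deposited peak lists, 1 per library, give for each peak a fold enrichment (a ratio over the caller's background), −log10 p, −log10 q (lowest 2.00 to 2.01) and a score, all as the authors' peak caller wrote them; the labels state neither the control nor the calling options. The lists hold no read counts, so depth is unknown and no counting interval can be given; the number of libraries limits the precision.

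Peaks were merged across libraries and annotated with RefSeq genes on GRCh38.p14 (pandas 2.3.3, numpy 2.4.6 and scipy 1.17.1 in Python 3.11.15; figures with matplotlib 3.10.9). Promoter and microRNA sequences are RefSeq's, on the same assembly. Gene coverage was tested with limma 3.58.1 (R 4.3.3, trend, Benjamini-Hochberg over 12957 genes) after cutting every list to its 63456 strongest peaks by −log10 p, and the fit was tested on simulated data. The simulation gave every gene the same spread and no difference between experiments, so it does not show how the fit performs on these data. Single values were compared with exact permutation or sign-flip tests. The members and gene lists were chosen with earlier results of these data known. Named regions were the 12 strongest in all 5 libraries and the 5 strongest in 1 genotype only; named genes were the 12 with the largest smallest difference from WT of the same experiment in each direction, the 8 with most regions and the most covered of each list. Other genes and regions named (CHASERR, MIR17HG, SNHG5, LINC00941, further members of lists, the related promoters) were chosen after their values were seen. The replicate number is the experiment, per the labels, and so pairs libraries: deviations of gene coverage of SCAN1 and WT libraries of the same experiment correlated at 0.342, 0.179 and 0.230. With 2 WT libraries, the values across experiments were the same with the sign reversed. All 3 values rest on the same WT deviations and are not independent.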

Additional observations from a re-analysis of the deposited data

Results flagged for a closer look

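In the 5 results described here the 2 SCAN1 lines differed in direction from WT of the same experiment. These differences between the lines were not tested, and SCAN1#2 has 1 library. The 5 are not a full count, and the share over all genes tested was not counted. Other list members differed in this way too, as LINC-PINT did by 3.13 points in SCAN1#2 and by -1.72 and -1.07 in SCAN1#1. The share of peak bases in lncRNA regions was 0.177 percentage points higher in SCAN1#2 than in WT, while both SCAN1#1 libraries were lower than WT, by differences of -0.774 and -0.198. The median difference of the lncRNAs described in RNA-DNA hybrids was 1.66 points for SCAN1#2, against -2.06 and -1.12 for SCAN1#1 in experiments 1 and 2.

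Coverage of single genes gave the other 3. LOC151760 differed from WT by -4.39 points in SCAN1#2 and by 4.67 and 0.0447 points in SCAN1#1. MIR23AHG, the host gene of miR-24, differed by -7.97 points in SCAN1#2 and by 8.87 and 7.22 points in SCAN1#1 in lists of equal length. In the whole lists SCAN1#1 of experiment 1 had 75.4% against 79.6% in WT, a difference of -4.17 points, so the SCAN1#1 libraries then differed in direction. Only 24.6% of the covered bases of MIR23AHG lay in lncRNA regions. HOTTIP, a lncRNA of the HOXA cluster, differed by 1.43 points in SCAN1#2 and by -1.24 and -4.27 points in SCAN1#1, with no peak in SCAN1#1 of experiment 2.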

How the results depend on the processing

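The difference between SCAN1 and WT in the share of peak bases was -0.338 with the experiment as a replicate block, -0.298 without SCAN1#1 of experiment 2, -0.486 without SCAN1#2, and between -0.892 and 0.989 when each library was left out. The limma counts were 2 higher and 1 lower on the log2(percent + 1) scale; with each library left out there were 0 higher and 0 to 34 lower. With the replicate block they stayed at 0 in both directions, with a smallest adjusted p of 0.348 and 41 higher (2.33%, against 2.86% of all genes) and 59 lower lncRNA genes (3.36%, against 2.65%) at an unadjusted p under 0.05. The block changed no other call. Leaving out a library gave 194 to 960 regions with peaks in SCAN1 only and 229 to 1589 in WT only, where fewer libraries had to meet the condition; at a −log10 q of at least 5 the WT count was 104, with fewer peaks in each list. The difference in median fold enrichment from intergenic regions was -0.0198 for regions more than 5 kb from protein-coding genes; the cause was not tested. The share of lncRNA regions in all 5 libraries was 10.1% in lists of equal length, 7.45% at a −log10 q of at least 5 and 3.5% where a peak had to cover at least 0.5 of the region. The median of the p53 list ranged from 0.341 to 9.19 with a library left out (7.02 without SCAN1#2). For the 24 genes named for their size of difference, 283 of 288 values under alternatives kept direction and side of the threshold, 4 passed it, all of FAM27C and LOC105369724, and 1 turned, NORAD at -2.11 without WT of experiment 1 (44.9 without WT of experiment 2). On the percent scale 33 of 264 such values, of 15 genes, moved by over 1.5 times, 6 each at a −log10 q of at least 5 and with genes extended by 1 kb. Genes named for their number of regions or list were not run one by one. Depth is unknown, so a missing peak is no measure of absence.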

Other observations

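The genes LINC00973, LOC102723769 and GIHCG were chosen after their values were seen. LINC00973, on chromosome 3, held 12 lncRNA regions and was covered by 4.16%, 5.95% and 3.95% in SCAN1 against 0.433% and 0.415% in WT (limma adjusted p = 0.765). LOC105374002, which lies beside it and is among the genes with the largest differences, had 47.8%, 44.9% and 26.9% in SCAN1 against 23.9% and 2.63% in WT. In both genes the SCAN1 values lay above the WT values in these lists of equal length, an order seen in 8.41% of all genes tested. In the whole lists LOC105374002 had 47.8%, 44.9% and 26.9% in SCAN1 against 31.5% and 12.2% in WT, and the genotypes overlapped.

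LOC102723769, on chromosome 22, held 15 lncRNA regions and was covered by 12.8%, 8.73% and 8.11% in SCAN1 against 1.06% and 0.698% in WT (limma adjusted p = 0.753). GIHCG, on chromosome 12, had no peak in SCAN1 and 12.7% and 12.6% in WT in lists of equal length. In the whole lists GIHCG had 0%, 23.5% and 5.81% in SCAN1 against 12.7% and 19.2% in WT, and the genotypes overlapped.

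Beyond TDP1 on the long arm of chromosome 14 lay 30 of the 15093 lncRNA regions (0.199%). They included 6 of the 176 regions with peaks in both WT libraries and no SCAN1 library (3.41%) and 0 of the 137 with peaks in SCAN1 only. The same shares over all merged regions are not given here, so these counts do not show a trait of lncRNA regions.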
